A study of Mus musculus with 11 samples.

Results

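The genes described here are the solute carriers that move sugars, amino acids, small peptides and monocarboxylates across membranes. They were taken by name, as the genes of the families Slc1, Slc2, Slc3, Slc5, Slc6, Slc7, Slc15, Slc16, Slc36, Slc38 and Slc43 whose symbol ends in a number. Slc6a20a, Slc6a20b, Slc5a4a and Slc5a4b, which end in a letter, are therefore not among them. The table of 35683 genes held 103 of them, with 561 transcripts. RNA came from whole homogenized colon of mice 2 weeks old, before weaning. One group was 6 libraries from mice without TNFR1, a receptor of the inflammatory cytokine TNF (Tnfr1-/-, gene Tnfrsf1a), and the other was 5 libraries from wild-type mice (WT). The labels number the libraries but do not say that each is a separate mouse, so p-values measure the spread between these samples. By its title, the series asks what loss of this receptor does in early life. The labels give neither the strain nor how the allele was made, and neither sex nor litter, so these could not be set against genotype.

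In the gut these carriers work in series. A transporter in the brush border, the folded surface facing the lumen, takes up a nutrient with sodium or protons, and another in the basolateral membrane passes it to the blood. Several work only as pairs, in which a heavy chain of the Slc3 family carries a light chain of the Slc7 family to the membrane. Colonocytes, the absorptive cells of the colon, are best known for taking up short-chain fatty acids through monocarboxylate carriers, while sugar and peptide uptake is mostly a task of the small intestine.

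Each value is taken, from the library sums, as a TPM that was scaled with 1 size factor per library, and it is called abundance here. They are corrected for transcript length, so levels of different genes can be set side by side. Estimated depth was 28.8 to 44.0 M reads per library. The deleted gene followed the labels: Tnfrsf1a was at 67.1 ± 5.04 in WT (SD, n = 5) and 22.4 ± 3.54 in Tnfr1-/- (SD, n = 6), with no overlap of groups (log2 fold change -1.57, SE 0.10, limma adjusted p = 8.5e-05). Replicates 1 and 2 of both groups differed from the rest of their group in tissue markers, more widely in WT. Summed abundance of 8 general epithelial genes was 4879 and 5560 in replicates 1 and 2 of WT and 3260 to 3476 in the other 3, and it was 4412 and 4012 in replicates 1 and 2 of Tnfr1-/- and 3174 to 3665 in the other 4. Summed abundance of 7 enteric neuron genes was 84.2 and 73.2 in the same WT libraries and 137 to 169 in the other 3, and 76.4 and 75.9 in the same Tnfr1-/- libraries and 96.4 to 123 in the other 4. Values are therefore also given without WT replicates 1 and 2, which leaves the like Tnfr1-/- libraries in, and without replicates 1 and 2 of both groups, a setting added after the data were seen. Skeletal muscle markers were highest in Tnfr1-/- replicate 2, where 6 genes summed to 7574 against 395 to 2413 elsewhere. All 6 squamous epithelium markers were higher by mean in Tnfr1-/- (median log2 fold change 0.46), with sums of 455 to 715 in WT and 202 to 1332 in Tnfr1-/-. The sum of 5 adipocyte markers was highest in Tnfr1-/- replicates 6 and 4, at 433 and 293, against 126 to 187 elsewhere. In RNA from a whole organ, fewer cells of a type cannot be told apart from less RNA per cell.

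The 4 most abundant carriers held 40.6% of the abundance. The 103 genes together took 0.145% to 0.184% of all abundance in a library. Slc6a14, a sodium- and chloride-driven carrier of neutral and basic amino acids on the apical surface of epithelia, was the most abundant by mean, at 301 over the 11 libraries. Slc38a6, Slc6a8 (the creatine transporter) and Slc3a2 (the heavy chain 4F2hc, or CD98) followed with means of 133, 117 and 115. Another 22 genes had means of 10 to 100, 44 were between 1 and 10, and 33 were under 1. Of the last, 26 were under 1 in every library, among them Slc2a2 (GLUT2, the basolateral hexose carrier of the small intestine, liver and kidney, at most 0.0823) and Slc5a2 (SGLT2, the renal glucose carrier, at most 0.119). Slc7a12 was listed at 0 in all 11. Slc2a5, the fructose carrier GLUT5 of the small intestine, was at 0.459 to 1.20.

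**Figure D1:**
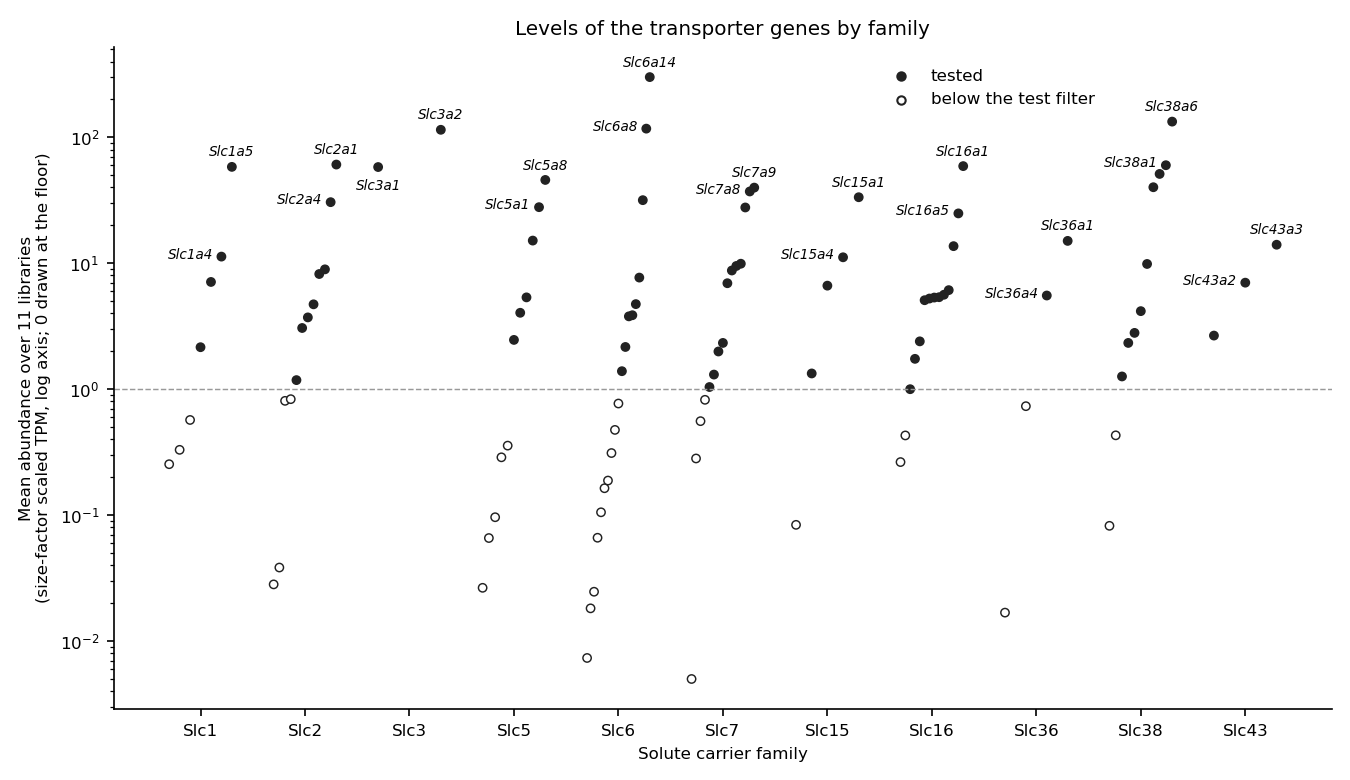
Mean abundance of each of the 103 genes over the 11 libraries (size-factor scaled TPM, log axis), by family, with the 2 highest genes of each family named. Filled points are the 70 genes that were tested, open points the 33 that were too low, and the dashed line marks an abundance of 1. Every family has at least 1 gene above 10. Slc6a14 is the highest at 301, and Slc7a12, listed at 0, is drawn at the bottom.

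By family, Slc6 held 29.0% of the abundance of these carriers, Slc38 18.6%, Slc3 10.5%, Slc7 9.03%, Slc16 8.30%, Slc2 7.49%, Slc5 6.19%, Slc1 4.87%, Slc15 3.21%, Slc43 1.45% and Slc36 1.30%. The place of Slc38 rests on Slc38a6, whose level is uncertain, and without that gene Slc38 held 10.5% of the same total. The summed abundance of Slc6 was 506 ± 130 in WT (SD, n = 5) and 450.4 ± 45.4 in Tnfr1-/- (SD, n = 6). WT replicates 1 and 2 reached 646 and 652, while the other 3 WT libraries lay at 399.9 to 433, inside the Tnfr1-/- range of 392 to 507. For the peptide carriers of Slc15 the sums were 48.9 ± 5.29 in WT (SD, n = 5) and 55.9 ± 4.94 in Tnfr1-/- (SD, n = 6). WT replicate 3 was lowest at 39.5, and the groups overlapped, as they did in all 11 families.

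**Figure D2:**
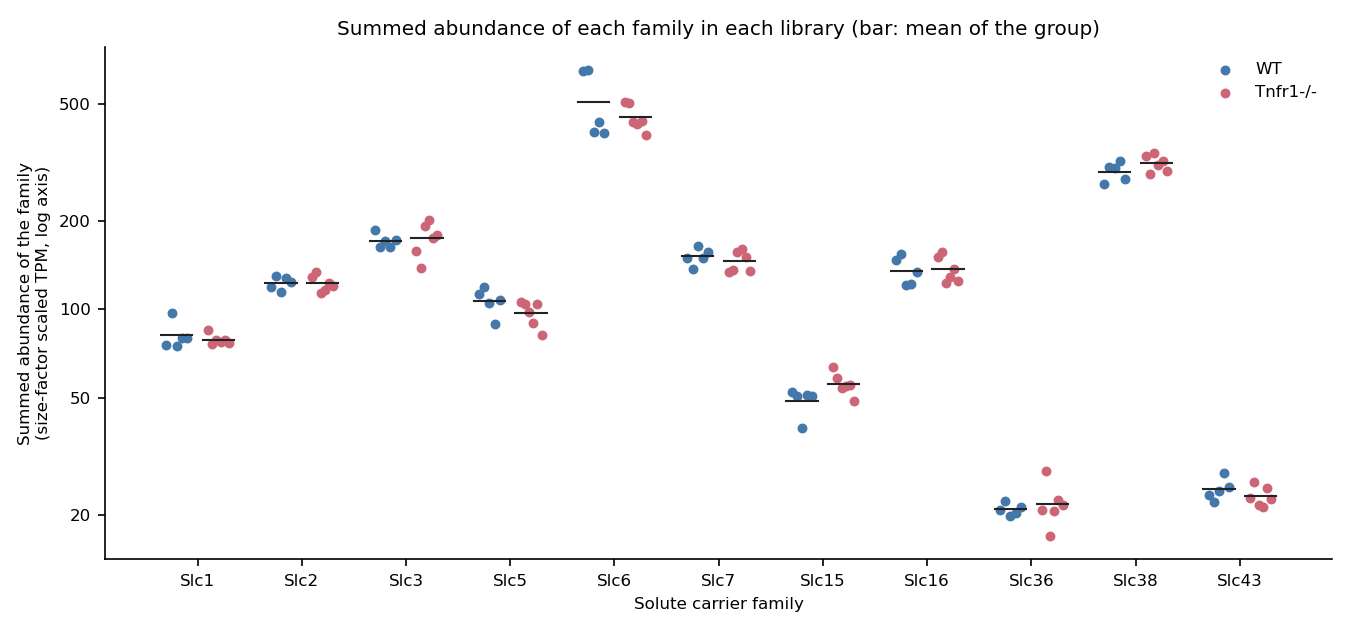
Summed abundance of each family in each library (size-factor scaled TPM, log axis), WT in blue and Tnfr1-/- in red, with a bar at the group mean. The groups overlap in every family, and the high pair in Slc6 is WT replicates 1 and 2 at 646 and 652.

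The level of Slc38a6, a carrier of the glutamine family that is best known from brain, is uncertain. Its gene lies on chromosome 12 at 73286779 to 73354049 (GRCm38). Of its value, 96.3% was given to 1 transcript, ENSMUST00000153941.7, with 5 exons and a last exon of 3531 bases at 73310990 to 73314520. In that transcript 78.0% of the words of 31 bases also occur in transcripts of other genes on either strand. By alignment (at least 90% identity over at least 300 bases), 85.0% of its 3927 bases match transcripts of 35 other genes, the longest being Gm42860 with 3260 bases at 98.3% identity and Noct with 3240 at 98.5%. The longer transcript ENSMUST00000140523.7 was at 3.02 ± 0.265 in WT (SD, n = 5) and 3.00 ± 0.161 in Tnfr1-/- (SD, n = 6). Without Slc38a6 the sum of Slc38 was 169 ± 12.6 in WT (SD, n = 5) and 175 ± 12.1 in Tnfr1-/- (SD, n = 6).

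No carrier differed between the groups after adjustment. Of the 103 genes, 70 reached an abundance of 1 in at least 5 libraries and were tested, and 0 had a limma adjusted p under 0.05. The background was 1 gene of 15079, or 0.00663%, and that gene was Tnfrsf1a. The smallest adjusted p among the carriers was 0.289, for Slc15a4. At an unadjusted p under 0.05 limma had 5 of the 70, or 7.14%, against 9.37% of all genes. Of these, 3 were lower in Tnfr1-/- (background 5.17%) and 2 higher (background 4.2%). Groups did not overlap for 1 carrier, or 1.43%, against 1.49% of all genes. The carriers therefore gave such genes about as often as the table as a whole. With the sample quality weights of limma the 5 became 10, while the share of all genes became 15.4%. Without WT replicate 1 there were 3 (all genes 7.29%), without WT replicate 4 there were 8 (11.7%), and without WT replicates 1 and 2 there were 9 (16.5%). Without replicates 1 and 2 of both groups there were 7 (12.8%), and there no gene at all had a limma adjusted p under 0.05, Tnfrsf1a included.

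Differences were small and most were bounded closely. Fold changes ran from -0.43 for Slc15a2 to 0.46 for Slc38a3 as log2(value + 0.5), a scale on which changes of low genes come out too small. Their median was -0.01, the same as over all genes, with 31 carriers higher and 39 lower in Tnfr1-/-. When columns were rescaled to a common sum (plain TPM), 38 were higher and 32 lower. The 95% interval of the difference lay inside 1.5-fold either way for 53 of the 70 (75.7%, against 82.3% of all genes). It lay inside 2-fold for 68, or 97.1%, against 93.2% of all genes. The exceptions were Slc15a2 and Slc38a3, both with wide spread among the Tnfr1-/- libraries.

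**Figure D3:**
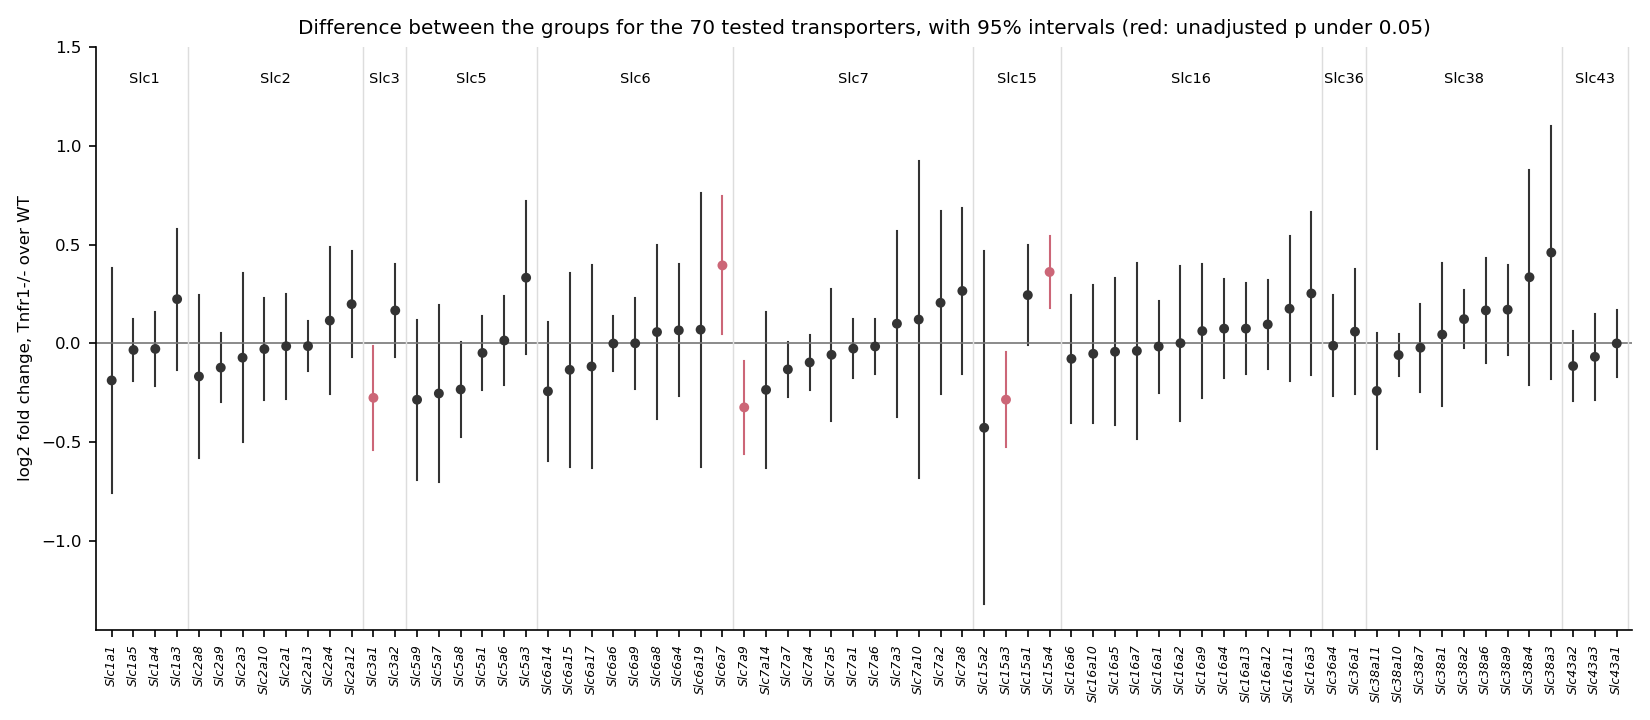
Log2 fold change, Tnfr1-/- over WT, of the 70 tested carriers with 95% intervals from limma, grouped by family. Red marks the 5 with an unadjusted p under 0.05. None has an adjusted p under 0.05, and the points run from -0.43 to 0.46.

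Among the carriers of the brush border, the cystine and dibasic amino acid pair was lower in Tnfr1-/- by mean, without passing the test. Slc7a9 encodes the light chain b0,+AT, which exchanges cystine, arginine and lysine for neutral amino acids, and Slc3a1 encodes its heavy chain rBAT. Mutations of either cause cystinuria in people. Slc7a9 was at 50.4, 39.6, 50.4, 41.1 and 42.7 in WT replicates 1 to 5, and at 28.1 to 42.1 with a median of 36.6 in the 6 Tnfr1-/- libraries. Of the 6 Tnfr1-/- libraries, 5 lay below the lowest WT library, and replicate 3 lay above WT replicates 2 and 4. This is a log2 fold change of -0.32 (SE 0.11, limma unadjusted p = 0.0111, adjusted p = 0.409), and in 20 of 21 other settings the unadjusted p was under 0.05. The exception was the fit without replicates 1 and 2 of both groups, with -0.29 (limma unadjusted p = 0.0808). Slc3a1 was at 81.8, 65.6, 59.6, 58.3 and 56.03 in WT replicates 1 to 5, and at 46.3 to 69.2 with a median of 51.1 in Tnfr1-/-. Of the 6 Tnfr1-/- libraries, 5 lay below every WT library and replicate 3 lay above all but WT replicate 1. The log2 fold change was -0.28 (SE 0.12, limma unadjusted p = 0.0424, adjusted p = 0.52). Without WT replicates 1 and 2 its limma unadjusted p was 0.257, and without replicates 1 and 2 of both groups the log2 fold change was -0.08. For Slc3a1 the limma unadjusted p was under 0.05 in 8 of 21 other settings.

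Both genes also moved together from library to library. Across the 11 libraries their log2 abundance had r = 0.77 and rho = 0.85 (permutation p = 0.0051 and 0.0014, or 0.0205 and 0.0056 adjusted over 8 pairs). The r was 0.73 without the 2 libraries farthest from the median of Slc3a1, and 0.76 within the 6 Tnfr1-/- libraries. No r of other gene pairs is given beside these, and the part of shared tissue content in them was not tested. Of the words of 31 bases in the Slc3a1 transcript, 25.5% also occur in Prepl, on the opposite strand. Whether the authors' quantification used strand is not given in the sources used here.

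The 250 bases before the RefSeq start of Slc3a1 and Slc7a9 (GRCm38.p6) are shown, a choice made because this pair moved together. No window is shown for Slc3a2 and Slc7a8, which moved together more closely (r = 0.84 against 0.77). The windows of Slc6a14 and Slc15a4 were also read, and they hold no match to the motifs searched. Capitals mark matches to 3 motifs of intestinal transcription factors, searched on both strands with no overlap between them: CAAAGTCCA for HNF4, AGATAA for factors of the zinc finger GATA family and TTTATNG for the homeodomain factor CDX2. Slc3a1 is read from chr17:85028097-85028346 and Slc7a9 from chr7:35448842-35449091, both on the plus strand. In GENCODE M21 Slc3a1 starts at 85028376, after its window. Slc7a9 starts there at 35448796, so its window lies inside the annotated gene.
Slc3a1: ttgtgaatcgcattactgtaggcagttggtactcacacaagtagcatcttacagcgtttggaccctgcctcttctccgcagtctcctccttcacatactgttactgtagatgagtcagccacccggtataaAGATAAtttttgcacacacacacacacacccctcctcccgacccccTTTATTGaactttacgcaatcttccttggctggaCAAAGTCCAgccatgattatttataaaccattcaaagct
Slc7a9: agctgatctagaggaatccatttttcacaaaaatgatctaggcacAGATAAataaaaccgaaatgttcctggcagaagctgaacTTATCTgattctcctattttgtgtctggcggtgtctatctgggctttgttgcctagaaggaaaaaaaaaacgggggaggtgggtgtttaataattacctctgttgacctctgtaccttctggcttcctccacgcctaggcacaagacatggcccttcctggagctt
The Slc3a1 window holds 1 match to each of the 3, and the Slc7a9 window holds 2 to GATA. Of 27025 genes with such a window, 0.451% hold the HNF4 motif, 11.4% the GATA motif and 11.3% the CDX2 motif. Of the 74 carriers with a window in the RefSeq table, the HNF4 letters stand only in Slc3a1, and the GATA letters in 4 (Slc3a1, Slc7a9, Slc7a7 and Slc15a2, 5.41%). The CDX2 letters stand in 5, or 6.76%. Also searched were GTTAAT, a half-site of HNF1, TGATGCAA for ATF4 and CACGTG for E-box factors, with no exact match in either window. Sites that differ from these letters were not searched. A match is a description of the letters and not of binding.

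Slc6a14 and the other carriers with sodium or proton drive in the brush border overlapped between groups. Slc6a14 (chromosome X, 21714896 to 21742355) was at 451, 428, 263, 271 and 255 in WT replicates 1 to 5, and at 238 to 311 with a median of 274 in Tnfr1-/-. WT replicates 1 and 2 were above all other libraries, and the other 3 WT libraries lay inside the Tnfr1-/- range. Its log2 fold change of -0.24 (SE 0.16, limma adjusted p = 0.67) became 0.05 without WT replicates 1 and 2, and -0.01 without replicates 1 and 2 of both groups. Slc5a8, the sodium-driven carrier of lactate, butyrate and other short-chain monocarboxylates, was at 55.8, 55.4, 49.2, 39.3 and 50.6 in WT and at 34.6 to 50.6 with a median of 43.4 in Tnfr1-/-. WT replicates 1 and 2 lay above all Tnfr1-/- libraries, and WT replicates 3, 4 and 5 within their range (log2 fold change -0.23, SE 0.11, limma adjusted p = 0.542).

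The peptide carrier of the brush border went the other way by mean. Slc15a1 encodes PEPT1, a proton-driven carrier of dipeptides and tripeptides. It was at 34.97, 32.7, 24.03, 29.1 and 30.96 in WT replicates 1 to 5, and at 30.6 to 42.5 with a median of 35.5 in Tnfr1-/-. The 3 highest libraries were Tnfr1-/-, and WT replicate 3 was the lowest (log2 fold change 0.24, SE 0.12, limma adjusted p = 0.547). Slc5a1, the sodium-glucose carrier SGLT1, was at 28.5 ± 3.56 in WT (SD, n = 5) and 27.4 ± 2.24 in Tnfr1-/- (SD, n = 6), with an interval of the log2 fold change from -0.24 to 0.14. Slc16a1, the proton-coupled monocarboxylate carrier MCT1, was at 59.5 ± 7.61 and 58.9 ± 7.97 in the same groups, with an interval from -0.25 to 0.22. Slc6a19 encodes B0AT1, the main carrier of neutral amino acids in the small intestine. It was low, at 1.52, 2.00, 2.67, 2.40 and 1.34 in WT and at 0.738 to 4.64 in Tnfr1-/-.

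Over the brush border list as a whole, 11 of 13 genes were tested, 3 higher and 8 lower, with a median log2 fold change of -0.19. Without WT replicates 1 and 2 it was 6 higher and 5 lower, with a median of 0.05, and without replicates 1 and 2 of both groups it was again 6 and 5, with a median of 0.00. Over all 11 libraries the 8 general epithelial markers were also lower by mean in Tnfr1-/- (median -0.14), as were 6 of 7 colonocyte markers (median -0.30) and 5 of 7 small intestinal enterocyte markers (median -0.21). The 8 ran from -0.01 for Cdh1 to -0.60 for Cdx2, which was at 115 ± 11.5 in WT (SD, n = 5) and 76.2 ± 12.3 in Tnfr1-/- (SD, n = 6). Cdx2 did not pass (limma adjusted p = 0.289). Its groups did not overlap, as for 1.49% of all genes. The marker lists differed once WT replicates 1 and 2 were set aside. Epithelial sums in WT replicates 3, 4 and 5 were 3260, 3476 and 3399, inside the Tnfr1-/- range of 3174 to 4412. Colonocyte sums there were 3108, 2854 and 3752, against 2640 to 3429 in Tnfr1-/-. Enterocyte sums there were 244, 243 and 215, against 186 to 220 in Tnfr1-/-. The part of these markers in the values of the brush border genes was not tested.

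**Figure D4:**
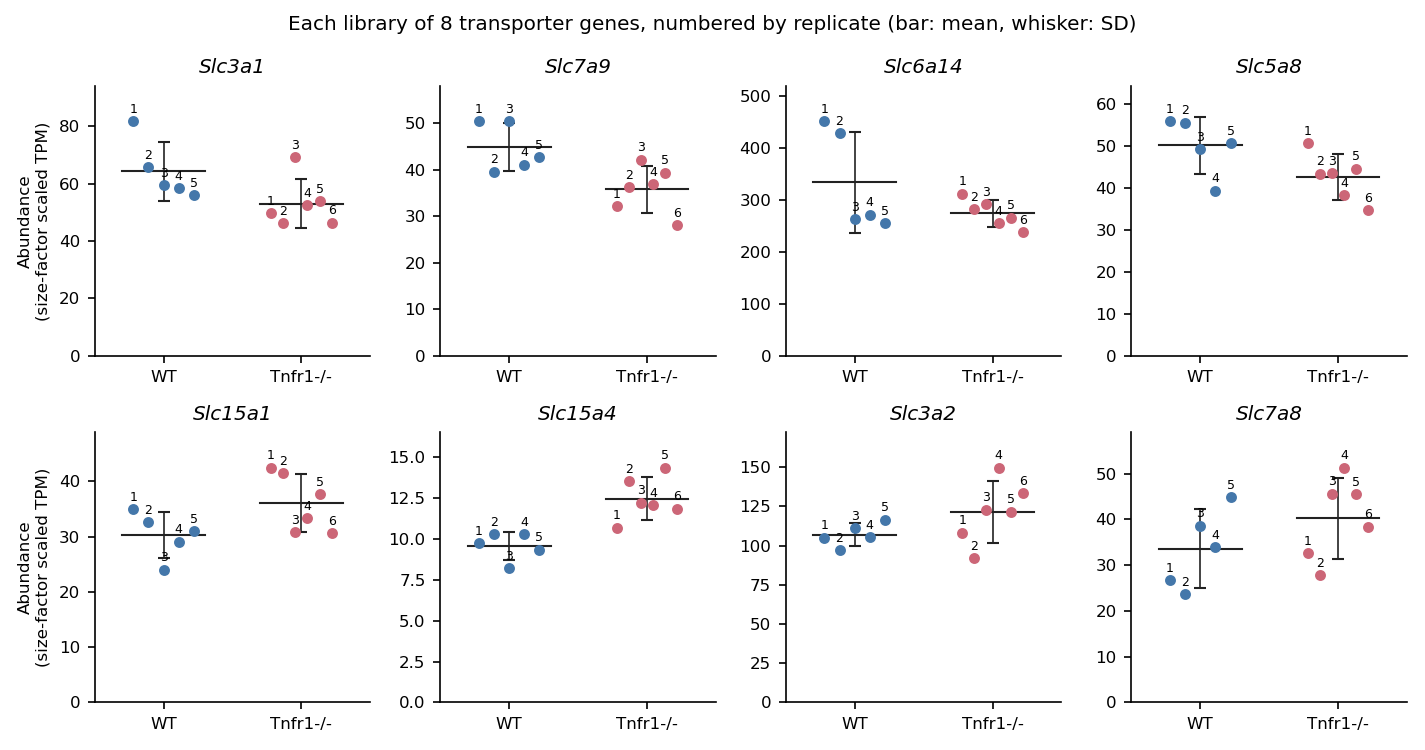
Abundance (size-factor scaled TPM) of 8 carriers in each library, numbered by replicate, with the group mean as a bar and the SD as a whisker. Slc15a4 is the 1 gene here whose groups do not overlap, and WT replicates 1 and 2 are the high pair in Slc6a14 and the low pair in Slc7a8.

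On the basolateral side, amino acids leave through light chains bound to Slc3a2. Slc3a2 was at 105, 97.1, 111, 105 and 117 in WT, and at 92.1 to 149.8 with a median of 122 in Tnfr1-/-. Tnfr1-/- replicates 3 to 6 were above every WT library and replicate 2 was below all of them (log2 fold change 0.17, SE 0.11, limma adjusted p = 0.666). Slc7a8 (LAT2, exchange of large and small neutral amino acids) was at 26.8, 23.6, 38.6, 33.9 and 44.8 in WT, and at 27.8 to 51.3 with a median of 41.9 in Tnfr1-/-. In both groups replicates 1 and 2 were the lowest libraries. It gave a log2 fold change of 0.27 (SE 0.19, limma adjusted p = 0.702), of 0.02 without WT replicates 1 and 2, and of 0.21 without replicates 1 and 2 of both groups. Slc7a7 (y+LAT1, export of arginine and lysine) was at 29.2 ± 2.27 in WT (SD, n = 5) and 26.6 ± 1.78 in Tnfr1-/- (SD, n = 6). The interval of the log2 fold change ran from -0.27 to 0.01. Of the 10 genes listed as basolateral, 8 were tested, 2 higher and 6 lower with a median of -0.02, or 4 and 4 when columns were rescaled.

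The heavy chain Slc3a2 followed Slc7a8 closely. Across the 11 libraries r was 0.84 and rho 0.87 (permutation p = 0.00093 and 0.00089, or 0.0074 and 0.0056 adjusted over 8 pairs). It was 0.80 without the 2 libraries farthest from the median of Slc3a2, 0.88 within Tnfr1-/- and 0.85 without WT replicates 1 and 2. The permutation asks only whether the 2 genes are correlated at all. No r of other gene pairs is given beside it, and the part of shared tissue content was not tested. With Slc7a5 (LAT1), the light chain best known from dividing cells, r was 0.06 (permutation p = 0.87, adjusted 0.87), and Slc7a5 itself was only at 6.54 to 12.7. With Slc7a11, the cystine and glutamate exchanger, r was 0.35, which became 0.01 without the same 2 libraries and 0.67 without WT replicates 1 and 2, at an abundance of 0.629 to 1.10. With the chaperone Bsg, r was 0.38 for Slc16a1 and -0.14 for Slc16a3, which became 0.49 and 0.19 with columns rescaled to plain TPM. For Slc6a19 with Cltrn it was -0.10. Slc3a2 with Slc7a5 or Slc7a11, both pairs with Bsg and the pair with Cltrn each had a permutation p of at least 0.58 after adjustment.

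**Figure D5:**
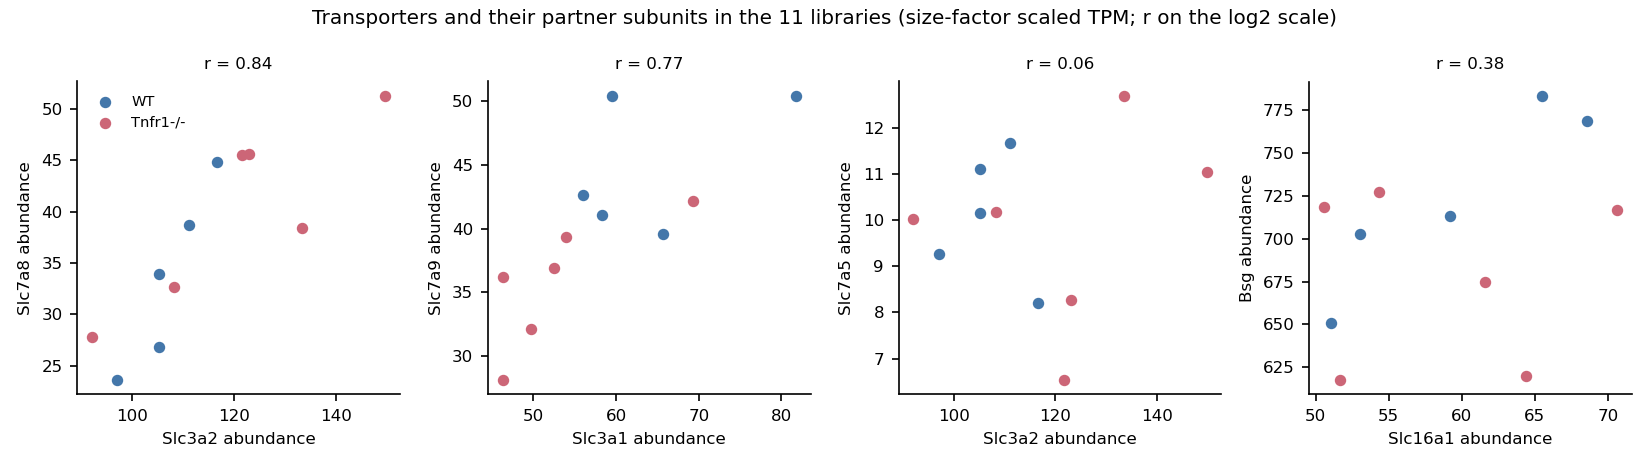
Abundance (size-factor scaled TPM) of 4 of the 8 partner pairs in the 11 libraries, WT in blue and Tnfr1-/- in red, on axes that do not start at 0. The heavy chains Slc3a2 and Slc3a1 rise with Slc7a8 (r = 0.84) and Slc7a9 (r = 0.77), while Slc3a2 with Slc7a5 (r = 0.06) and Slc16a1 with Bsg (r = 0.38) are scattered.

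Inside the cell, the lysosomal carriers held the 1 gene whose groups stood apart. Slc15a4 encodes a proton-driven carrier of histidine and peptides out of the endosome and lysosome, known in immune cells for its part in signalling of endosomal Toll-like receptors. The gene (ENSMUSG00000029416) lies on chromosome 5 at 127595664 to 127632897. It was at 9.77, 10.3, 8.21, 10.3 and 9.36 in WT, and at 10.7 to 14.4 with a median of 12.2 in Tnfr1-/-, so that every Tnfr1-/- library was above every WT library. The log2 fold change was 0.36 (SE 0.08, 95% interval 0.18 to 0.54), and it did not pass (limma unadjusted p = 0.00114, adjusted p = 0.289). Over 21 other settings its unadjusted p stayed under 0.05 in each, and its adjusted p ran from 0.105 to 0.568. In its main transcript 14.6% of the words of 31 bases also occur in Gm43474, on the opposite strand. Most of the abundance of Slc15a4, 61.6%, was in this protein-coding transcript, ENSMUST00000031367.14, at 5.25 ± 0.870 in WT (SD, n = 5) and 8.22 ± 2.10 in Tnfr1-/- (SD, n = 6). Unlike the gene sum, this transcript overlapped between groups, at 4.49 to 6.60 in WT and 6.42 to 12.3 in Tnfr1-/-. In the authors' deposited table this transcript has a log2 fold change of 0.646 and a q-value of 0.702, the smallest q among 208 carrier transcripts there.

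Slc15a3, its close relative in lysosomes of macrophages and dendritic cells, was lower by mean. It was at 1.66, 1.89, 1.14, 1.58 and 1.43 in WT, and at 1.00 to 1.24 with a median of 1.20 in Tnfr1-/-, so that WT replicate 3 was the 1 WT library inside the Tnfr1-/- range. The log2 fold change was -0.28 (SE 0.11, limma unadjusted p = 0.025, adjusted p = 0.475), on an estimated 60.9 to 128 reads. WT replicates 1 and 2 were the 2 highest libraries. Without them the log2 fold change was -0.17 (limma unadjusted p = 0.150). Without replicates 1 and 2 of both groups it was -0.19 (limma unadjusted p = 0.154). In 14 of 20 other settings the limma unadjusted p was under 0.05. All 5 macrophage and dendritic cell markers were also lower by mean (median -0.15), and their sum overlapped, at 26.7 to 39.9 in WT and 22.7 to 37.3 in Tnfr1-/-. Their part in the value was not tested. The other lysosomal carriers were Slc36a1, Slc38a7, Slc38a9 and Slc7a14. Slc38a9, an arginine sensor upstream of mTORC1, was at 2.60 ± 0.471 in WT (SD, n = 5) and 2.97 ± 0.219 in Tnfr1-/- (SD, n = 6). Slc36a1, a proton-driven exporter of small amino acids, was at 14.6 ± 2.03 and 15.4 ± 3.60 in the same groups. Of the 6 in this list 3 were higher and 3 lower.

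Carriers of glucose and lactate in cells with high glycolysis differed little by mean. Slc2a1 (GLUT1) was at 66.6, 76.96, 48.6, 52.9 and 62.1 in WT, and at 49.9 to 71.1 with a median of 60.1 in Tnfr1-/-. Tnfr1-/- lay inside the WT range, and the interval of the log2 fold change was -0.28 to 0.25. Of its abundance 65.0% was given to a transcript annotated as a target of nonsense-mediated decay. Slc2a4 (GLUT4, the insulin-responsive glucose carrier of muscle and fat) was at 29.4 ± 7.39 in WT (SD, n = 5) and 31.5 ± 5.69 in Tnfr1-/- (SD, n = 6). The highest library, at 40.03, was Tnfr1-/- replicate 2, which also had the most skeletal muscle marker RNA. Slc16a3 (MCT4, lactate export) was at 14.4, 12.4, 8.997, 12.8 and 12.2 in WT, and at 11.00 to 24.4 with a median of 13.99 in Tnfr1-/-. That same replicate 2 was the highest for Slc16a3 as well, at 24.4, and without it the log2 fold change was 0.10 in place of 0.25. The part of muscle or fat RNA in these values was not tested.

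Carriers that rise when amino acids run short, as targets of the factor ATF4, were split evenly. Of 9 listed 8 were tested, 4 higher and 4 lower, with a median of -0.01. Slc38a2 (SNAT2, sodium-driven uptake of small neutral amino acids) was at 51.3, 52.5, 45.3, 48.8 and 46.2 in WT, and at 46.8 to 60.9 with a median of 53.5 in Tnfr1-/- (log2 fold change 0.12, SE 0.07, limma adjusted p = 0.609). Its interval ran from -0.03 to 0.27. Slc1a5 (ASCT2, glutamine exchange) was at 59.2 ± 6.84 in WT (SD, n = 5) and 57.6 ± 2.67 in Tnfr1-/- (SD, n = 6), with an interval from -0.19 to 0.12. Slc7a1 (CAT-1, arginine and lysine uptake) was at 9.62 ± 0.630 and 9.44 ± 0.767 in the same groups. Atf4 itself was at 149 ± 7.54 in WT (SD, n = 5) and 149 ± 7.36 in Tnfr1-/- (SD, n = 6). The list of the amino acid response, Atf4 included, held 10 tested genes, of which 8 were higher and 2 lower, with a median of 0.14. At a limma unadjusted p under 0.05 there were 2, both higher (background 9.37% of all genes, 4.2% for higher ones). These were Ddit3 (CHOP, a stress factor downstream of ATF4), at 22.2 ± 3.11 in WT (SD, n = 5) and 28.4 ± 3.51 in Tnfr1-/- (SD, n = 6), as well as Ddit4 (an inhibitor of mTORC1), at 55.4 ± 6.37 and 65.3 ± 6.75 in the same groups. Neither passed (limma adjusted p = 0.394 and 0.465).

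Neurotransmitter carriers were low. Of 11 listed, 5 were under 1 in every library and 4 were tested. Slc6a4, the serotonin carrier, was at 3.38, 5.18, 3.16, 3.58 and 3.13 in WT, and at 3.05 to 5.01 with a median of 3.75 in Tnfr1-/-, so that groups overlapped almost wholly. Slc5a7, the choline carrier of cholinergic neurons, was at 1.88, 1.57, 3.66, 3.93 and 3.00 in WT and at 1.66 to 2.69 with a median of 2.25 in Tnfr1-/-. WT replicates 1 and 2 were among the 3 lowest libraries, and the other 3 WT libraries were above all of Tnfr1-/-. With all libraries the log2 fold change came to -0.25 (SE 0.20, limma adjusted p = 0.733). Without WT replicates 1 and 2 it was -0.60 (SE 0.14, limma adjusted p = 0.138), a fit that keeps the 2 lowest Tnfr1-/- libraries, replicates 1 and 2. Without replicates 1 and 2 of both groups it was -0.48 (SE 0.11, limma adjusted p = 0.245). For the lysosomal carrier Slc7a14 and the neutral amino acid carrier Slc6a15, WT replicates 3, 4 and 5 were likewise above all of Tnfr1-/-. Without replicates 1 and 2 of both groups their log2 fold changes were -0.44 (limma adjusted p = 0.271) and -0.35 (0.331). In that fit 10% of the tested carriers had a limma unadjusted p under 0.05, against 12.8% of all genes. Slc5a7, Slc7a14 and Slc6a15 were picked out after their values were seen. The share of all genes split in this way was not counted. The enteric neuron markers were split the same way among the libraries, as given above, and their part in these 3 genes was not tested.

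Among the remaining carriers, Slc6a7, a proline carrier known from brain, was at 3.15, 2.62, 3.53, 2.77 and 3.94 in WT, and at 3.32 to 5.85 with a median of 4.14 in Tnfr1-/-. The 4 highest libraries were Tnfr1-/- and the 3 lowest WT (log2 fold change 0.39, SE 0.16, limma unadjusted p = 0.0303, adjusted p = 0.496). Tnfr1-/- replicates 1 and 2 were the highest, at 5.85 and 5.73. Without WT replicates 1 and 2 the log2 fold change of Slc6a7 was 0.31 (limma unadjusted p = 0.137). Without replicates 1 and 2 of both groups it was 0.12 (limma unadjusted p = 0.402). In 11 of 20 other settings the limma unadjusted p was under 0.05. Slc5a3, the sodium-driven myo-inositol carrier, was at 4.24, 4.66, 2.70, 2.65 and 3.21 in WT, and at 2.90 to 5.48 with a median of 4.69 in Tnfr1-/- (log2 fold change 0.33, SE 0.18, limma adjusted p = 0.595). Slc6a8 was at 116 ± 34.7 in WT (SD, n = 5) and 119 ± 26.1 in Tnfr1-/- (SD, n = 6). The WT values were again highest in replicates 1 and 2, at 142 and 162 against 81.8 to 99.8 in the other 3. Slc2a3 (GLUT3), 2.55 Mb from Tnfrsf1a, was at 3.89 ± 1.30 in WT (SD, n = 5) and 3.58 ± 0.709 in Tnfr1-/- (SD, n = 6). The other tested carrier on chromosome 6, Slc6a6 (taurine uptake), was at 31.7 ± 2.66 and 31.7 ± 2.09 in the same groups.

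Single transcripts gave the same count. Of 123 carrier transcripts tested, 0 had a limma adjusted p under 0.05, against a background of 0.00902%, and the smallest was 0.454. At an unadjusted p under 0.05 there were 12, or 9.76%, against 8.26% of all transcripts. The authors' deposited table has 208 carrier transcripts, of which 0 have a q-value under 0.05, and 5.29% have a p-value under 0.05, against 4.39% of its 49778 transcripts. The protein-coding transcript of Slc1a5, ENSMUST00000108496.8, was at 27.3 ± 2.90 in WT (SD, n = 5) and 21.8 ± 3.54 in Tnfr1-/- (SD, n = 6), while a retained-intron transcript, ENSMUST00000127401.7, was at 17.9 ± 4.47 and 20.5 ± 1.49. Reads of 75 bases from 1 end leave such splits uncertain.

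Genes that act beside the carriers were read from lists of chaperones, brush border hydrolases, hexose and lactate enzymes and the amino acid response. Of 30 tested, 0 had a limma adjusted p under 0.05 and 5 an unadjusted p under 0.05 (16.7%, against 9.37% of all genes). Of these 3 were higher, Mme, Ddit3 and Ddit4, and 2 lower, Mgam and Rsc1a1. Bsg, which brings monocarboxylate carriers to the membrane, was at 724 ± 53.5 in WT (SD, n = 5) and 679 ± 50.1 in Tnfr1-/- (SD, n = 6). Cltrn, which brings Slc6a19 to the membrane in the kidney, was at most 0.186. Mgam, a brush border enzyme that frees glucose from starch, was at 90.2, 98.5, 88.1, 70.4 and 96.3 in WT, and at 63.5 to 82.04 with a median of 74.9 in Tnfr1-/-. WT replicate 4 alone lay inside the Tnfr1-/- range (log2 fold change -0.25, SE 0.09, limma adjusted p = 0.455). Mme, the peptidase neprilysin, was low, at 0.904 to 1.36 in WT and 1.41 to 2.94 in Tnfr1-/- (log2 fold change 0.55, SE 0.16, limma adjusted p = 0.394). It was the 1 of the 30 whose groups did not overlap, or 3.33%, against 1.49% of all genes. Lct, the lactase of the small intestine, was at 0.179 ± 0.137 in WT (SD, n = 5) and 0.334 ± 0.267 in Tnfr1-/- (SD, n = 6). Ldha, the main enzyme of lactate formation, was at 951 ± 152 in WT (SD, n = 5) and 947 ± 108 in Tnfr1-/- (SD, n = 6).

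The tested carriers had a higher median variation between libraries than all tested genes, without matching for abundance. The median coefficient of variation over the 11 libraries was 18.8% for the 70 tested carriers and 12.6% for all tested genes. An abundance of 10 in at least 5 libraries was reached by 28 of these 70 carriers and by 8872 of the 15079 genes. The part of low abundance in this difference was not tested. The steadiest included Slc2a13 (a proton-driven myo-inositol carrier, 5.21%), Slc38a10 (5.46%) and Slc7a6 (6.34%), and 12 were at or under 10%. The most variable were Slc7a10 (55.2%), Slc38a3 (49.6%), Slc6a19 (48.2%) and Slc15a2 (43.2%), named after their values were seen. Slc15a2, the kidney and brain peptide carrier PEPT2, was at 1.82 and 2.29 in Tnfr1-/- replicates 5 and 2 and at 5.12 to 10.02 in the other 9 libraries. Slc38a3 (SNAT3, glutamine exchange) and Slc6a19 were both highest in Tnfr1-/- replicate 6, at 4.85 and 4.64, and both lowest in replicate 5, at 1.08 and 0.738. WT replicates 1 and 2 were the 2 highest libraries for 8 carriers (11.4%, against 10.4% of all genes) and the 2 lowest for 6 (8.57%, against 10.4%).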

How the data were processed

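The 11 RNA samples from mouse colon were sequenced as single-end reads of 75 bases from a stranded mRNA kit, per the labels' protocols. Per the submitters' processing notes CASAVA, kallisto, sleuth and mm10 were used, with no versions or roles given. The deposited signal values are normalized abundances per transcript. From the library sums, 934563 to 1055498, they are taken here as TPM divided by a size factor. The authors also deposited a p-value, a q-value and a log2 fold change per transcript. Counts are not used here, so no count test was run. Depth was estimated from low values, which are whole multiples of 1 read within 0.02 for 58.8% to 62.8% of them (1.79% to 2.24% at another factor).

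Repeated lines of a transcript, all with equal values, were dropped (584 transcripts), and transcripts were summed per gene. The 97 transcripts without a gene held 0.031% of abundance and were left out. Values were tested as log2(value + 0.5) with limma 3.58.1 in R 4.3.3 (trended variance) across 15079 genes with a value of at least 1 in at least 5 libraries. P-values were adjusted by Benjamini-Hochberg over all of them, and the fit was tested on simulated data. All tests are two-sided. Tables and permutation tests of pairs (100000 permutations) were made with pandas 2.3.3, scipy 1.17.1 and numpy 2.4.6 in Python 3.11.15. Positions are from GENCODE M21 and promoters from RefSeq GRCm38.p6.

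The carriers, lists and pairs were chosen with earlier results of these data known. Carriers were named where they were the 2 highest of a family, among the 10 with the smallest p, not overlapping between groups, or in a pair. Companion genes were named where they were in a pair or among the 2 highest of a list. Any other carrier or companion gene was named after its values were seen. Alternatives were another normalization, filter and pseudocount, sample weights, a replicate block and leaving out libraries. The replicate numbers are not stated to link samples across groups. Protein sequences were not used here. Of the 8 pairs, 1 is not reported here.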

Additional observations from a re-analysis of the deposited data

Results flagged for a closer look

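In 3 groups of values 1 library lay far from the rest by Dixon's criterion, out of 62 groups checked, where chance gives 3.1 at 1 in 20. Slc16a3, the lactate exporter MCT4, was at 24.4 in Tnfr1-/- replicate 2, and the next highest Tnfr1-/- library was at 14.9. The same library had the highest sum of skeletal muscle markers, 7574, whose part in the value was not tested. Slc3a1, the heavy chain of the cystine carrier, was at 69.2 in Tnfr1-/- replicate 3, with the next at 53.98. Slc7a11, the cystine and glutamate exchanger, was at 1.10 in WT replicate 2, with the next WT library at 0.772.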

How the results depend on the processing

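The count of carriers, carrier transcripts and companion genes with a limma adjusted p under 0.05 was 0 in each of 21 alternatives, 1 of them (without replicates 1 and 2 of both groups) chosen after seeing the data. The number of carriers at an unadjusted p under 0.05, 5 as reported, was 3 of 28 tested with a filter at 10 in place of 1 (10.7%, all genes 10.5%), 10 with sample quality weights, and 9 without WT replicates 1 and 2. It was 9 with the replicate number as a block over replicates 1 to 5 (13.0%, all genes 10.3%). Deviations of same-numbered libraries had r of 0.27, -0.01, 0.38, -0.22 and 0.33, with the own number closest for 1 of 5. Not all are over 0.1 and the labels give no link, so the numbers are not taken to pair the libraries. The block changed no call. Leaving out 1 library gave 3 (without WT replicate 1) to 8 (without WT replicate 4). With columns rescaled to plain TPM, r was 0.49 for Slc16a1 with Bsg and 0.19 for Slc16a3 with Bsg. The causes of these changes were not tested. The log2 fold changes of Slc15a4 (0.31 to 0.43), Slc7a9 (-0.37 to -0.26) and Slc3a1 (-0.35 to -0.08) kept their sign in all 21. Their limma unadjusted p was under 0.05 in 21, 20 and 8 of the 21. By contrast, 17 tested carriers changed sign without WT replicates 1 and 2, and 17 without them in both groups. Carriers of low abundance, such as Slc15a3, rest on few reads, and the 33 that were not tested are too low for a comparison.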
